A study of Mus musculus with 32 samples.

Results

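The 44 interferon-stimulated genes described here are the members of a fixed symbol list, matched through their Ensembl identifiers to a table of read counts for 56953 genes. All 44 were found, and all 44 were among the 14427 genes that passed the filter on low counts. The counts come from macrophages that were differentiated from mouse bone marrow. Femurs and tibias of animals aged 8 to 12 weeks gave the marrow, and L929 supernatant in the medium supplied M-CSF, which drives macrophage growth. The design had 2 genotypes, labelled Acod1 WT and Acod1 KO (Irg1-/-, Irg1 being the older name of Acod1, the enzyme that makes itaconate), both given as strain C57BL/6J. Each genotype was left untreated (control) or received 100 nM dexamethasone, 100 ng lipopolysaccharide (LPS) with no volume given, or both, for 24 h. Each of the 8 groups had 4 libraries, 32 in all. It is not stated if each replicate was a separate mouse, nor if WT means Irg1+/+ animals or purchased C57BL/6J mice. A p-value here therefore reflects library-to-library spread, which may be technical in part. The series asked how glucocorticoids act on LPS-treated macrophages and whether loss of Irg1 changes that action.

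Interferon-stimulated genes encode much of the antiviral machinery of a cell. Type I interferon binds the receptor Ifnar1 and Ifnar2, the kinases Jak1 and Tyk2 pass the signal on, and a complex that includes Stat2 and Irf9 then binds the interferon-stimulated response element (ISRE) of the target genes. LPS reaches the same genes through its receptor Tlr4 and the adaptor TRIF (Ticam1), which lead to Irf3 activation and interferon beta. Macrophages are also known to keep these genes at a basal level through small amounts of interferon without infection. Dexamethasone is a synthetic glucocorticoid that acts through the glucocorticoid receptor, the product of Nr3c1.

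Library totals ran from 17559079 to 25049200 assigned read pairs. Levels are given in CPM, the count scaled for depth with TMM library totals. Each effect is a log2 fold change with its SE, taken from 1 edgeR quasi-likelihood fit of the 32 libraries. A gene was called where the p adjusted by Benjamini-Hochberg over all tested genes was under 0.05. The 8 macrophage markers, among them Csf1r, Adgre1 and Lyz2, summed to 17500 to 31430 CPM over the libraries. The sum was 17500 to 19440 CPM in WT with LPS and 30500 to 31430 CPM in WT with both agents. Lyz2 was at means of 7278 and 20949 CPM in these 2 groups. Single markers moved in opposite directions: from WT control to WT LPS, Cd68 went from 1102 to 357 CPM and Adgre1 from 1135 to 4194 CPM. Marker lists of plasmacytoid dendritic cells, fibroblasts, neutrophils, B cells, and T or NK cells each summed to 13.8 CPM or less in every library, the neutrophil markers reaching 11.2 to 13.8 CPM in WT with both agents and 5.21 to 6.032 CPM in KO with both. Most of that was S100a8, at a mean of 11.9 CPM in WT with both, while Camp was at 2.09 CPM in WT with LPS and 0.729 CPM with both. The 5 conventional dendritic cell markers summed to 15.7 to 16.58 CPM in the WT dexamethasone libraries against 0.701 to 1.388 CPM in WT control. That sum was nearly all Flt3 (0.0376 CPM in control and 15.4 CPM with dexamethasone, means). The other markers were near the floor and moved both ways. Cd209a went from 0.333 CPM to 0 and Itgae from 0.531 to 0.374 CPM, while Zbtb46 went from 0.142 to 0.228 CPM. Xcr1 had 1 count summed over the WT control libraries and 4 over the WT dexamethasone libraries. The part of these markers in the results was not tested. Fewer cells of a type and less RNA per cell cannot be told apart in such bulk samples. Acod1 counts pool all exons and the deleted part is not given in the sources used here, so they do not check the KO label. Acod1 was at 6483 ± 249 CPM (SD, n = 4) in WT with LPS and at 4995 ± 133 CPM in libraries labelled KO with LPS. With both agents it was lower in WT, at 2738 ± 34.8 CPM, than in libraries labelled KO, at 3933 ± 195 CPM (0.52 ± 0.041, adjusted p = 7.6e-16). Per the column headers, all 16 WT libraries and 6 KO libraries were sequenced in lane 3, while all KO libraries with LPS, alone or with dexamethasone, were in lane 2. The remaining 2 are 1 KO dexamethasone library in lane 2 and KO control replicate 1, whose header marks it as merged. Differences in level between genotypes under LPS, and LPS effects within KO, therefore cannot be told apart from the lane, except through a fit with a lane term, which rests on that KO dexamethasone library and also leaves out the merged library. For the dexamethasone effect under LPS, both groups within a genotype shared a lane.

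Promoter sequence was available for 33 of the 44 genes, as RefSeq windows from 250 bases before to 50 bases after the start site (build GRCm38.p6). The core of the ISRE, written GAAANNGAAA and searched on both strands, occurred in 16 of the 33 genes (48.5%), against 3.96% of the 10176 tested genes with a window. The stretches below show this core, in capitals, in genes whose levels are described in detail. Each is written 5′ to 3′ on the strand of the gene, and where the capitals begin with TTTC the core lies on the other strand.
Ifit1, chr19:34640765-34640814, plus strand: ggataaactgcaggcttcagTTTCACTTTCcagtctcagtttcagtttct
Ifit3, chr19:34583353-34583402, plus strand: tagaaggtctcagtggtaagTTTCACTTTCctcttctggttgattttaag
Ifit3b, chr19:34607749-34607798, plus strand: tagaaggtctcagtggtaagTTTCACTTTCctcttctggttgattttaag
Isg15, chr4:156200861-156200910, minus strand: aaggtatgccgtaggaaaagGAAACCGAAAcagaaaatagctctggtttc
Rsad2, chr12:26456543-26456592, minus strand: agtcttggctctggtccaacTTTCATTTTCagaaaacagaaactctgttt
Bst2, chr8:71537573-71537622, minus strand: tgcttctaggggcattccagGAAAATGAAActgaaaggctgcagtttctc
The stretches of Ifit3 and the nearby Ifit3b have the same letters. The capitals mark 1 core in each stretch: Isg15 has 3 overlapping matches, and the stretches of Ifit1 and Bst2 each hold another core in or partly in lower case. A match is a description of the letters and does not show binding.

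The 44 genes together held 8701 ± 549 CPM (SD, n = 4) in WT control and 2947 ± 112 CPM with dexamethasone. With LPS they held 16415 ± 342 CPM, and with dexamethasone and LPS 9612 ± 104 CPM. The KO sums were 8848 ± 306, 3209 ± 54.9, 15815 ± 377 and 13665 ± 235 CPM in the same order. The last of these is the only KO sum that stood far from its WT counterpart. Levels differed widely among the genes: per kilobase of exon, Ifitm3, which blocks fusion of viruses with endosomes, was highest in WT control at 1304 CPM per kb. It was followed by Ifi27l2a at 578 CPM per kb, Lgals3bp at 305 and Bst2 at 277, and Ifi44 was lowest at 3.76 CPM per kb. With LPS the order at the top was Ifitm3 at 1814 CPM per kb, Bst2 at 1008, Lgals3bp at 721 and Isg15 at 535. The lowest level per kilobase with LPS was that of Ifit3b at 8.92 CPM per kb.

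**Figure D1:**
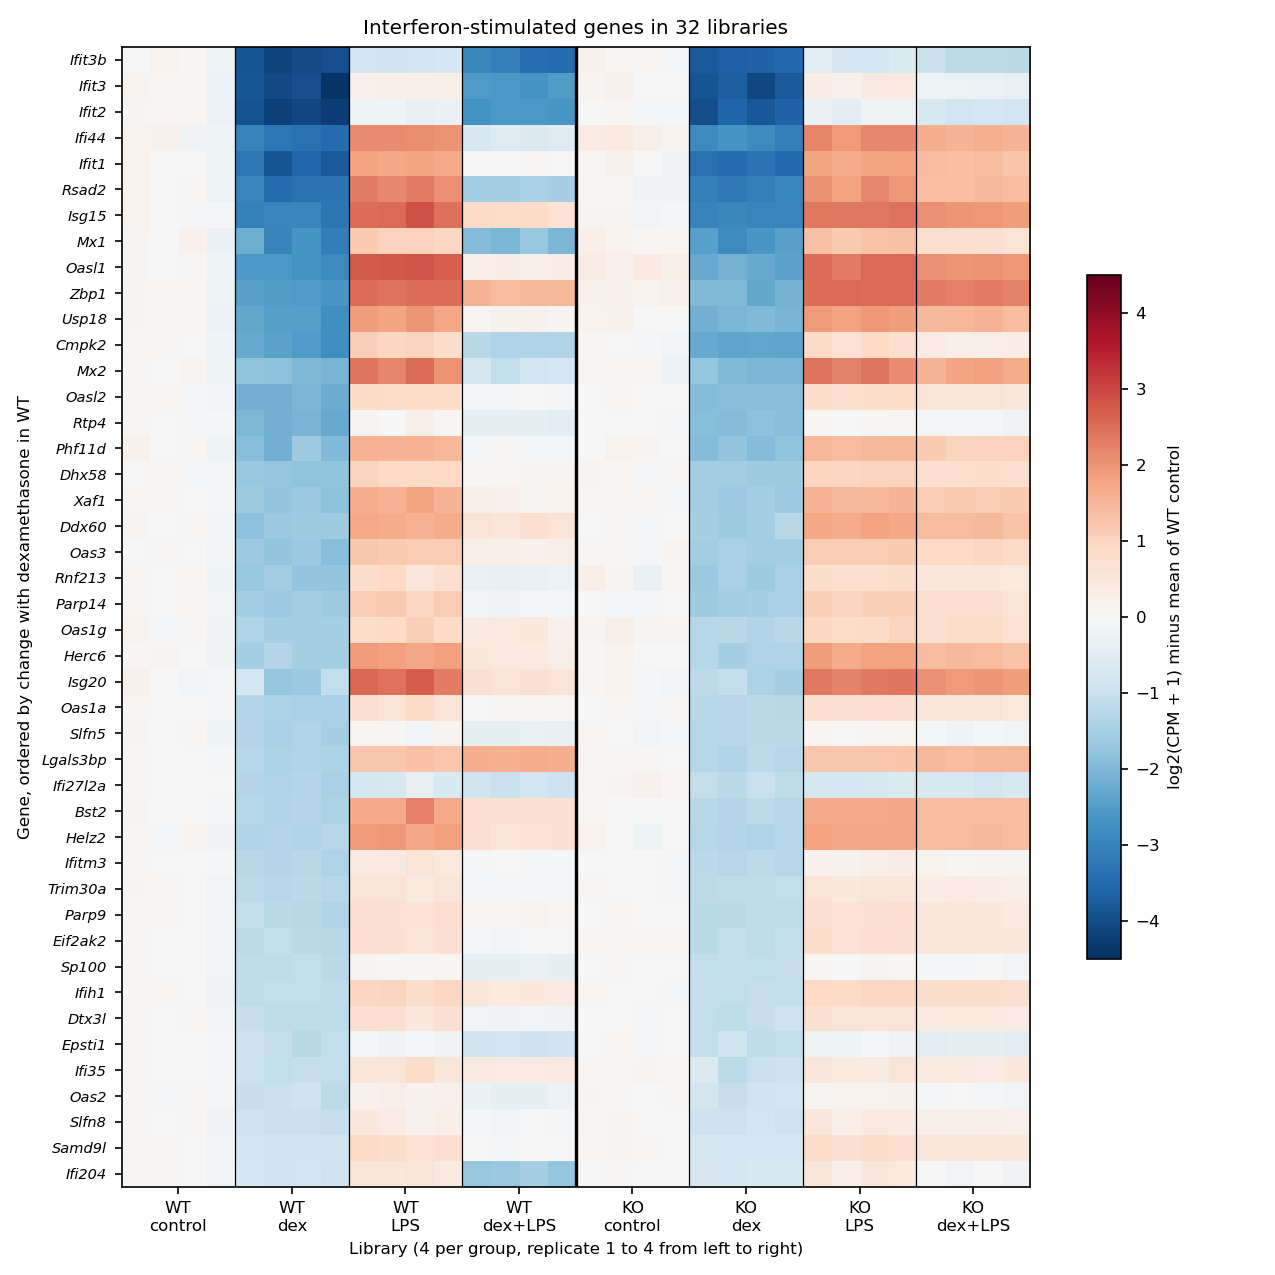
Level of each of the 44 interferon-stimulated genes (rows) in each of the 32 libraries (columns), as log2(CPM + 1) minus the gene's mean over the WT control libraries, on a colour scale from blue (lower) to red (higher). All 4 WT dexamethasone libraries lie below WT control for every gene, a fall of 0.87 or more on the log2 scale in the fit.

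The first comparison asked what dexamethasone does to these genes in resting WT macrophages. It lowered all 44, against 28.2% of all tested genes called lower, and raised 0, against 21.2% called higher. The median log2 fold change of the list was -1.56 while that of all tested genes was -0.0179. In every gene all 4 dexamethasone libraries lay below all 4 control libraries, which held for 26.4% of all tested genes. The fall was 2-fold or more for 42 genes, the exceptions being Ifi204 and Samd9l, and dexamethasone left from 3.34% (Ifit3b) to 54.9% (Ifi204) of the control level. The largest adjusted p among the 44 was 1.1e-12 (edgeR), for Isg20.

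The IFIT family, tetratricopeptide proteins that bind foreign RNA, fell furthest. Its 4 genes lie close together on chromosome 19, between 34528094 and 34627409 in the annotation of the deposited table. Ifit2 and Ifit3 both changed by -4.20 (SE 0.077 and 0.083). Ifit3b (ENSMUSG00000062488, chromosome 19, 34585370 to 34590801, plus strand) was at 33.5, 36.3, 34.3 and 27.6 CPM in the WT control libraries and at 1.31, 0.879, 1.05 and 1.16 CPM with dexamethasone, a change of -4.91 ± 0.13. Ifit1 was at 153, 137, 139 and 120 CPM in control and at 13.5, 8.23, 10.5 and 9.1 CPM with dexamethasone (-3.75 ± 0.080). Ifit3 and Ifit3b share 51.2% and 45% of their 50-base transcript windows with other genes, so reads of the pair may be split between them and their separate values are uncertain.

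Among the OAS family, which sense double-stranded RNA and make the oligoadenylates that switch on RNase L, the range was wide. Oasl1, a relative without that activity that in the mouse is known to restrain Irf7 translation, was at 29.8, 27.1, 28.6 and 23.7 CPM in control and at 3.68, 3.76, 3.4 and 2.9 CPM with dexamethasone (-2.99 ± 0.091). Oas2 changed least, from 164, 150, 163 and 153 CPM to 76.6, 77.9, 82.4 and 68.5 CPM (-1.05 ± 0.045). Between them lay Oasl2 (-2.17 ± 0.038), Oas3 (-1.76 ± 0.042), Oas1g (-1.54 ± 0.070) and Oas1a (-1.43 ± 0.044), and Oas1a and Oas1g share 57.6% and 54.7% of their windows, so their values are uncertain as well.

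The ISG15 system attaches and removes the ubiquitin-like protein Isg15. Isg15 itself fell from 68.4, 61.4, 57.1 and 56.6 CPM to 6.45, 6.92, 6.81 and 5.35 CPM (-3.25 ± 0.091). Herc6, the mouse ligase for Isg15, fell from 49.3, 51, 45.6 and 41.5 CPM to 15.5, 18, 15.9 and 15.3 CPM (-1.53 ± 0.066). Usp18, which removes Isg15 and also damps signalling at the interferon receptor, lay between them (-2.59 ± 0.075). The Mx genes encode dynamin-like GTPases, and C57BL/6 mice are known to carry a defective Mx1 allele. Mx1 went from 36.4, 34.3, 38.5 and 26.9 CPM to 6.5, 3.28, 4.5 and 3.03 CPM (-3.00 ± 0.12). Mx2 went from 19.4, 18, 19.7 and 15.3 CPM to 4.38, 4.24, 3.65 and 3.48 CPM (-2.20 ± 0.13).

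The next genes sense nucleic acid. Of the RNA sensors, Dhx58 (LGP2) fell most, from 93.9, 98.3, 88.6 and 86.8 CPM to 27.4, 26.5, 25.5 and 25.2 CPM (-1.81 ± 0.044). Ifih1, the gene for MDA5, fell least, from 108, 106, 104 and 92.3 CPM to 46.2, 46.5, 46.9 and 46.1 CPM (-1.14 ± 0.044). Ddx60, a helicase linked to RNA sensing, changed by -1.77 ± 0.071 and Eif2ak2, the kinase PKR that stops translation, by -1.20 ± 0.043. The genes of the DNA side differed widely. Zbp1, a sensor of Z-form nucleic acid that can trigger necroptosis, went from 54.5, 53.4, 52.3 and 42.7 CPM to 8.57, 8.11, 7.81 and 7.36 CPM (-2.67 ± 0.065). Ifi204, a DNA sensor of the PYHIN family, changed least of all 44 genes, from 197, 191, 187 and 170 CPM to 109, 99.1, 104 and 96.7 CPM (-0.87 ± 0.048). Xaf1, a pro-apoptotic factor, changed by -1.79 ± 0.060.

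Enzymes that act on nucleotides and RNA came next. Rsad2 (ENSMUSG00000020641, chromosome 12, 26492745 to 26506451, minus strand), the gene for viperin, which makes a chain-terminating nucleotide, went from 156, 142, 148 and 121 CPM to 17.3, 11.8, 12.9 and 13.1 CPM (-3.38 ± 0.085). Its neighbour Cmpk2, a nucleotide kinase, changed by -2.54 ± 0.070. Isg20, an exonuclease, had the lowest counts of this group, 11.5, 9.87, 8.98 and 9.35 CPM in control and 5.24, 2.24, 2.4 and 4.11 CPM with dexamethasone (-1.53 ± 0.15). The membrane-bound factors fell by a similar amount. Bst2, or tetherin, which holds budding virus at the cell surface, went from 271, 250, 244 and 236 CPM to 102, 96.3, 100 and 91.6 CPM (-1.36 ± 0.068). Ifitm3 went from 924, 889, 877 and 847 CPM to 368, 350, 369 and 338 CPM (-1.31 ± 0.039).

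The remaining roles covered nuclear, growth-related and less defined genes. Phf11d, a PHD-finger gene, went from 42.9, 37.4, 39.8 and 32.1 CPM to 9.28, 7.63, 11.6 and 8.88 CPM (-2.04 ± 0.080), and Dtx3l, the ubiquitin ligase that partners Parp9, from 170, 167, 169 and 152 CPM to 78.9, 73.4, 74.6 and 74.5 CPM (-1.12 ± 0.045). Parp14 (-1.58 ± 0.045), Helz2 (-1.35 ± 0.055), Parp9 (-1.24 ± 0.043) and the nuclear body gene Sp100 (-1.16 ± 0.037) lay between them. Slfn5 of the Schlafen family, known for growth control and restriction of viruses, went from 597, 552, 570 and 472 CPM to 218, 196, 213 and 192 CPM (-1.42 ± 0.049). Samd9l, a growth suppressor, went from 279, 284, 271 and 247 CPM to 147, 146, 143 and 144 CPM (-0.90 ± 0.039), and Slfn8 changed by -1.01 ± 0.050. Of the less defined genes, Ifi44 fell from 25.7, 26, 20.4 and 20 CPM to 1.97, 1.52, 1.3 and 1.16 CPM (-3.96 ± 0.12) and Ifi35 from 47.2, 46.6, 45.3 and 43.1 CPM to 23, 20.8, 21.8 and 20.8 CPM (-1.08 ± 0.068). Rtp4 (-2.15 ± 0.046), Rnf213 (-1.72 ± 0.073), Lgals3bp (-1.38 ± 0.035), Ifi27l2a (-1.37 ± 0.054), Trim30a (-1.25 ± 0.041) and Epsti1 (-1.11 ± 0.050) made up the rest.

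**Figure D2:**
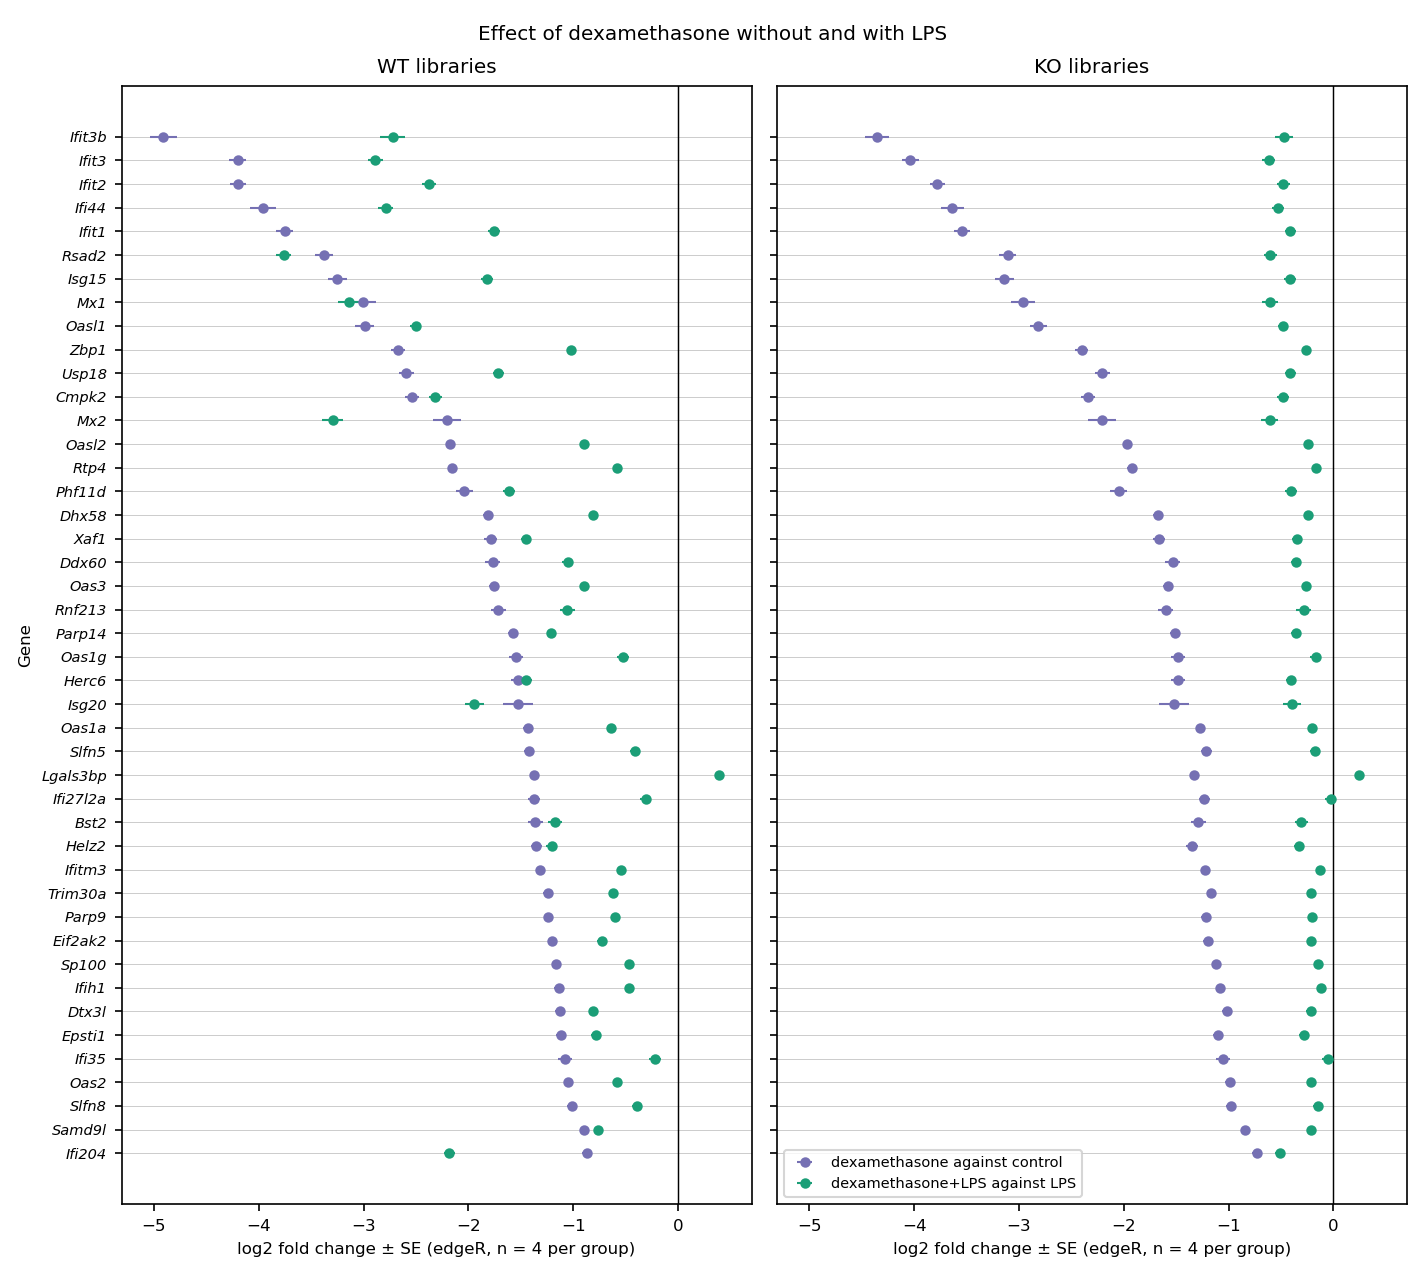
Log2 fold change ± SE with dexamethasone added, for each of the 44 genes, without LPS (dexamethasone against control) and with LPS (dexamethasone and LPS against LPS alone), with WT in the left panel and KO in the right one. In WT the values run from -4.91 to -0.87 without LPS and from -3.76 to 0.40 with LPS, while in KO those with LPS lie between -0.62 and 0.25.

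Dexamethasone without LPS had the same direction in KO. All 44 genes were called lower, against 27.6% of all tested genes (20.9% were higher), with a median of -1.52 (all genes -0.0171), and again no KO dexamethasone library reached the KO control range for any of the 44, against 25.9% of all tested genes. Values ran from -4.36 ± 0.12 for Ifit3b to -0.73 ± 0.048 for Ifi204. Across the 44 genes the WT and KO fold changes, which share no library, had a Pearson r of 0.996 and a Spearman rho of 0.991. The direct test of the difference between genotypes called 0 of the 44 genes with edgeR and 0 with DESeq2, against 0% of all tested genes in either direction. At an unadjusted p under 0.05 there were 12 genes, and the share of all tested genes at that p is not given here. The median difference was 0.11 (all genes 0.00189), with the KO value the less negative one in 42 genes. The 44 genes were read in the same libraries, so 42 of them is not a count of independent results.

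The second comparison asked how LPS alone changed the list. In WT, 38 genes rose, 4 fell and 2 were not called, with a median of 0.92 (all genes -0.0196). Among all tested genes 37.4% were called higher and 38.3% lower. Oasl1 rose most, from 29.8, 27.1, 28.6 and 23.7 CPM in control to 192, 196, 199 and 179 CPM with LPS (2.81 ± 0.056). It was followed by Isg20 (2.63 ± 0.10), Isg15 (2.63 ± 0.062), Zbp1 (2.52 ± 0.046), Mx2 (2.35 ± 0.090), Rsad2 (2.22 ± 0.065) and Ifi44 (2.13 ± 0.068). The genes that fell were Ifit3b (-0.88 ± 0.081, adjusted p = 7.0e-14), Ifi27l2a (-0.63 ± 0.053, adjusted p = 3.1e-15), Ifit2 (-0.27 ± 0.060, adjusted p = 6.6e-05) and Epsti1 (-0.13 ± 0.047, adjusted p = 0.010). Ifit2 libraries of WT control and LPS overlapped. Sp100 (0.07 ± 0.036, adjusted p = 0.073) and Slfn5 (0.04 ± 0.047, adjusted p = 0.49) were not called. Sp100 was called higher with RLE size factors (adjusted p = 0.024) and DESeq2 (0.026), and Sp100 and Slfn5 were called lower with no normalization. The Epsti1 call was lost without WT control replicate 1 (adjusted p = 0.053) and at a threshold of 0.01. Within the IFIT family Ifit1 rose by 1.77 ± 0.058 and Ifit3 by 0.27 ± 0.060, the latter not called with no normalization (0.01, adjusted p = 0.92). One WT LPS library, replicate 3, stood apart in several genes: Bst2 was at 1204 CPM there against 811 to 817 in the other 3, and Isg15 at 447 against 345 to 362. It also stood apart beyond the list. Its pairs with the other WT LPS libraries had a chi-square per degree of freedom of 16.1 to 16.7 over the genes with counts. Pairs among the other 3 had 2.68 to 5.57. Without that library 42 genes were called, 41 of them shared with the full set of libraries.

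In KO, LPS raised 36 of the 44 genes, against 36.8% of all tested genes, and lowered 4, against 39.3%, with a median of 0.79. The 4 that fell were again Ifi27l2a (-0.84 ± 0.053), Ifit3b (-0.80 ± 0.079), Ifit2 (-0.28 ± 0.060) and Epsti1 (-0.19 ± 0.047). Oas2, Rtp4, Slfn5 and Sp100 were not called (0.09, 0.07, 0.09 and 0.05, adjusted p = 0.063 to 0.21). All 4 were called higher with RLE size factors (adjusted p = 0.012 to 0.038) and with DESeq2 (0.017 to 0.043), and lower with no normalization (5.8e-06 to 0.0048). The LPS effects of the 2 genotypes, which share no library, had r = 0.992 over the 44 genes. The test of their difference called 2 genes lower, against 1.64% of all tested genes, which were Oasl1 (-0.62 ± 0.078, adjusted p = 3.1e-07) and Ifitm3 (-0.21 ± 0.053, adjusted p = 0.012). With the lane term and without the merged library it called neither (Oasl1 -0.35, Ifitm3 -0.15), and the KO LPS effect on Epsti1 was not called either (-0.13, adjusted p = 0.28).

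**Figure D3:**
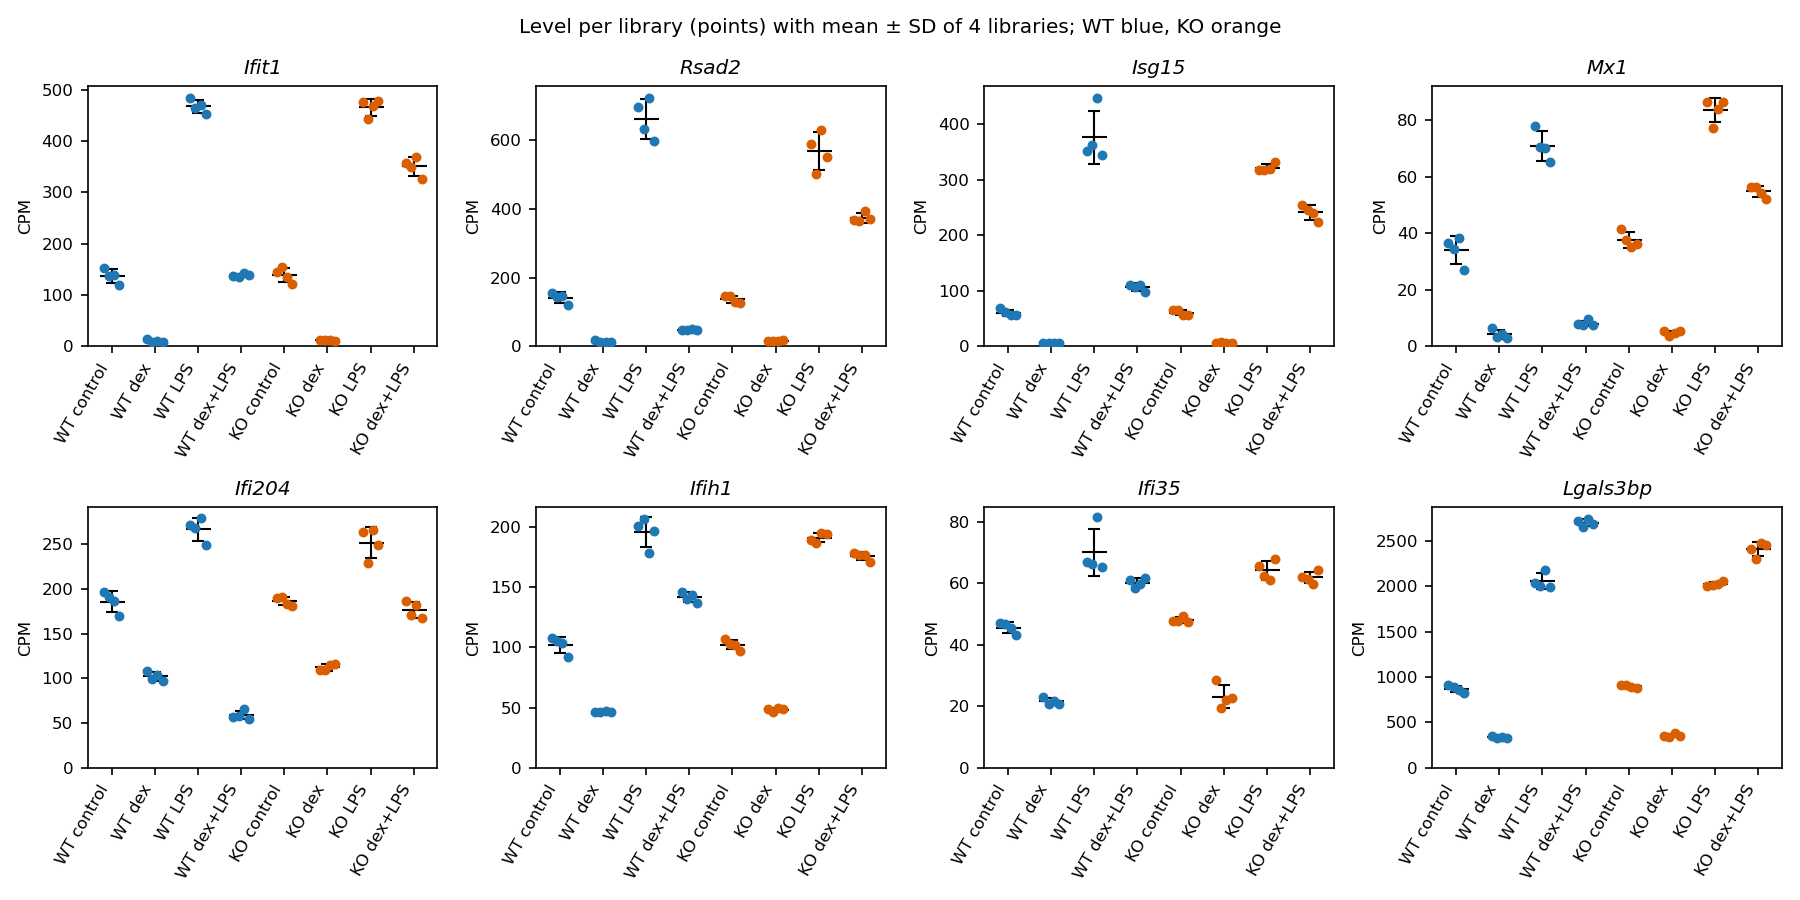
Level in CPM of 8 interferon-stimulated genes in each library (points, linear axes from 0), by group, with the mean (horizontal line) and SD (error bar) of the 4 libraries. LPS with dexamethasone gives levels far below LPS alone in WT for genes such as Rsad2 (48.8 against 661 CPM) but not for Lgals3bp (2701 against 2054 CPM), and KO levels with both agents lie between.

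The third comparison asked what dexamethasone does to the list when LPS is present. In WT it lowered 43 of the 44 genes relative to LPS alone, against 34.5% of all tested genes, and raised 1, Lgals3bp, against 34.6%. The median was -1.04 (all genes 0.00708), 23 genes changed by 2-fold or more, and the libraries of the 2 groups did not overlap for any of the 44, against 29.9% of all tested genes with all libraries lower and 30.6% with all higher. The largest adjusted p was 0.0011 (edgeR), for Ifi35.

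Rsad2, Mx2 and Mx1 fell most. Rsad2 was at 697, 631, 722 and 596 CPM with LPS and at 48.1, 48.1, 50.3 and 48.9 CPM with both (-3.76 ± 0.072), so dexamethasone left 7.39% of the LPS level. Mx2 was at 99.3, 85.9, 108 and 76.4 CPM with LPS and at 10.1, 7.8, 9.51 and 10.3 CPM with both (-3.30 ± 0.099). Mx1 was at 78, 70.3, 70.2 and 65 CPM and at 7.88, 7.43, 9.56 and 7.38 CPM (-3.14 ± 0.10). Ifit3 was at 212, 220, 221 and 219 CPM with LPS and at 30, 29.3, 28 and 30.4 CPM with both (-2.89 ± 0.071). Ifit1, the least lowered of its family, was at 484, 464, 471 and 453 CPM and at 138, 136, 143 and 138 CPM (-1.75 ± 0.058). Ifit3b changed by -2.72 ± 0.12 and Ifit2 by -2.38 ± 0.068.

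Oasl1 again fell most in the OAS family, from 192, 196, 199 and 179 CPM to 33.5, 34.7, 32.6 and 34.6 CPM (-2.50 ± 0.054). Oas1g fell least, from 73.8, 78.1, 87.9 and 74.6 CPM to 55, 55.7, 58.9 and 48.8 CPM (-0.53 ± 0.057). The other 4 lay between -0.90 and -0.58. In the ISG15 system, Isg15 went from 352, 362, 447 and 345 CPM to 110, 108, 111 and 97 CPM (-1.82 ± 0.058) and Herc6 from 180, 171, 157 and 170 CPM to 64.7, 62.2, 63.7 and 57.5 CPM (-1.45 ± 0.052). Usp18 changed by -1.71 ± 0.057.

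The RNA sensors changed by -1.05 to -0.47 under LPS. Ddx60 went from 113, 109, 101 and 109 CPM to 52.5, 47.9, 55.7 and 52.6 CPM (-1.05 ± 0.052), and Ifih1 from 201, 207, 178 and 197 CPM to 146, 140, 143 and 137 CPM (-0.47 ± 0.039). Dhx58 changed by -0.81 ± 0.038 and Eif2ak2 by -0.73 ± 0.040. On the DNA side the order was the reverse of that without LPS. Ifi204 fell most, from 271, 268, 280 and 249 CPM to 56.7, 57.8, 65.7 and 55.1 CPM (-2.18 ± 0.051), while Zbp1 fell least, from 295, 281, 294 and 293 CPM to 147, 138, 143 and 144 CPM (-1.02 ± 0.042). Ifi204 shares 30.2% of its transcript windows with other genes, mostly relatives in the same cluster, so its value is uncertain.

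Isg20 went from 64.2, 57.8, 71.4 and 52.9 CPM to 16.5, 15.6, 16.3 and 15.7 CPM (-1.94 ± 0.093) and Cmpk2 changed by -2.32 ± 0.063. Bst2 went from 817, 811, 1204 and 811 CPM to 411, 402, 403 and 399 CPM (-1.17 ± 0.063), and Ifitm3 from 1170, 1171, 1366 and 1213 CPM to 847, 868, 832 and 830 CPM (-0.54 ± 0.038). Phf11d fell from 115, 115, 114 and 108 CPM to 36.8, 39, 36.4 and 35.4 CPM (-1.61 ± 0.061). Sp100 fell least of its group, from 301, 290, 286 and 297 CPM to 212, 211, 221 and 207 CPM (-0.47 ± 0.036). Among the Schlafen and SAMD9 genes, Samd9l went from 489, 463, 428 and 441 CPM to 270, 258, 271 and 271 CPM (-0.77 ± 0.037), and Slfn8 from 207, 190, 169 and 182 CPM to 142, 138, 150 and 141 CPM (-0.39 ± 0.048). Ifi44 went from 104, 104, 100 and 94.8 CPM to 14, 14.9, 14.4 and 14.9 CPM (-2.79 ± 0.072). Ifi35, which forms a complex with Nmi, was the least lowered of the 43, at 66.8, 66.3, 81.5 and 65.4 CPM with LPS and 61, 58.4, 59.6 and 61.7 CPM with both (-0.22 ± 0.060). With no normalization it was not called (-0.12, adjusted p = 0.069).

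Lgals3bp (ENSMUSG00000033880, chromosome 11, 118283577 to 118292918, minus strand), a secreted glycoprotein that binds galectin-3, was the exception. It was at 908, 885, 862 and 822 CPM in WT control, at 352, 323, 341 and 325 CPM with dexamethasone, at 2035, 2006, 2181 and 1992 CPM with LPS and at 2717, 2653, 2745 and 2687 CPM with both. Dexamethasone thus lowered it without LPS (-1.38 ± 0.035) and raised it with LPS (0.40 ± 0.034, adjusted p = 1.2e-14). No pair of these 4 groups overlapped.

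Whether the effect of dexamethasone differed with LPS was tested as a difference of effects within WT. The effect was less negative with LPS in 36 genes, against 32% of all tested genes called in that direction, more negative in 4, against 28.4%, and not called different in 4, with a median difference of 0.67. The largest differences toward 0 included Ifit3b (2.19 ± 0.21), Ifit1 (2.00 ± 0.10), Ifit2 (1.82 ± 0.10), Lgals3bp (1.77 ± 0.049), Zbp1 (1.65 ± 0.080), Rtp4 (1.57 ± 0.061) and Oasl2 (1.27 ± 0.051). The effect was more negative with LPS for Ifi204 (-1.32 ± 0.070, adjusted p = 4.4e-22), Mx2 (-1.10 ± 0.18, adjusted p = 9.6e-07), Rsad2 (-0.38 ± 0.11, adjusted p = 0.0034) and Isg20 (-0.42 ± 0.18, adjusted p = 0.042). The Isg20 call was lost without any 1 of 9 libraries, among them WT dexamethasone replicate 1 (adjusted p = 0.43). Herc6 (0.08 ± 0.085), Mx1 (-0.14 ± 0.17), Helz2 (0.15 ± 0.073) and Bst2 (0.19 ± 0.092) did not pass the test (adjusted p = 0.077 to 0.51). Bst2 was called without WT LPS replicate 3 (0.35, adjusted p = 7.2e-09), without WT control replicate 4 (adjusted p = 0.049), with no filter on low counts (0.0013), with no normalization (0.014) and with the replicate number as a block (0.045). Helz2 was called without WT control replicate 4 (adjusted p = 0.019) or WT LPS replicate 2 (0.037), with no filter (0.034) and with no normalization (0.015). Over the 44 genes the WT fold changes without and with LPS, which share no library, had r = 0.736 and rho = 0.71.

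LPS still acted on the list in the presence of dexamethasone. Compared with dexamethasone alone, WT cells given both agents had 43 genes higher, against 35.5% of all tested genes, and 1 lower, Ifi204 (-0.80 ± 0.052), against 37.8%, with a median of 1.56. Zbp1 rose by 4.17 ± 0.060, Ifit1 by 3.76 ± 0.080 and Lgals3bp by 3.01 ± 0.037. Set against untreated WT cells, those given both agents had 17 genes higher, 18 lower and 9 not called, with a median of -0.05, where 34.5% of all tested genes were higher and 37.8% lower. Lower than control were Ifit3b (-3.61 ± 0.11), Ifit2 (-2.65 ± 0.068), Ifit3 (-2.62 ± 0.071), Mx1 (-2.08 ± 0.11), Ifi204 (-1.66 ± 0.051), Rsad2 (-1.54 ± 0.072) and Cmpk2 (-1.36 ± 0.063). Higher than control were Lgals3bp (1.64 ± 0.035), Zbp1 (1.5 ± 0.046), Isg15 (0.81 ± 0.063), Helz2 (0.66 ± 0.051) and Ifih1 (0.47 ± 0.040). Ifit1 (0.01 ± 0.060) and Samd9l (-0.02 ± 0.038) were not called. Without scaling between libraries the split was 13 higher and 27 lower, with the median of all genes at -0.201.

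Before the KO libraries with both agents are compared, one property of these 4 libraries has to be stated. Each gene's level in them was expressed as a position on the line from the WT mean with both agents (0) to the KO mean with LPS alone (1), in linear CPM. Over 429 genes that differed at least 4-fold between the 2 ends and reached 10 CPM in 1 of them, the median position was 0.628 and the middle 50% of genes lay between 0.602 and 0.655. Genes higher in KO LPS had a median of 0.626 and genes lower there 0.634. On the log2(CPM + 1) scale the middle 50% spread from 0.439 to 0.809. The 4 libraries had medians of 0.62, 0.66, 0.649 and 0.587. The 41 interferon-stimulated genes at least 1.3-fold apart had a median of 0.636, with the middle 50% between 0.611 and 0.656. Rsad2 was at 0.626, Mx1 at 0.62, Ifit3 at 0.601, Isg15 at 0.627 and Ifi204 at 0.611, although the 2 ends were 11.6-fold, 10.3-fold, 7.84-fold, 3.01-fold and 4.28-fold apart. Lgals3bp, at 0.435, was the lowest of the 41. Bulk means do not tell an intermediate level in every cell from a mix of cells or of RNA at both levels, and this was not tested. All results on KO with both agents rest on these 4 libraries, so none can be given without them.

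**Figure D4:**
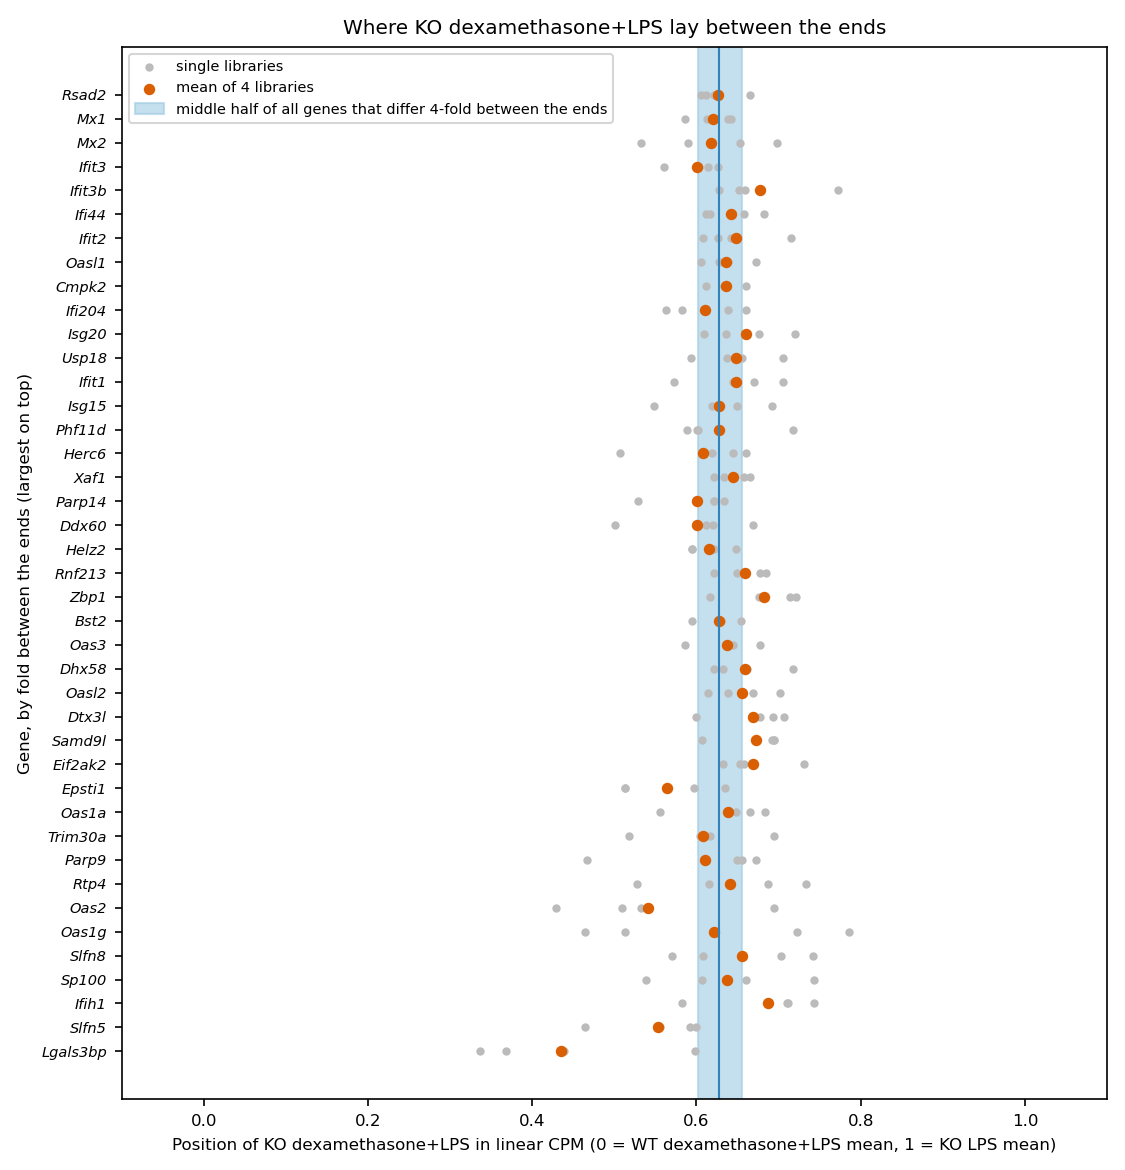
Position of the 41 interferon-stimulated genes that differ at least 1.3-fold between WT with dexamethasone and LPS (0) and KO with LPS alone (1), in linear CPM, for the mean (orange points) and each of the 4 KO libraries with both agents (grey points), ordered by the fold between the ends. The blue line marks the median of the 429 genes, 0.628, and the shaded band their middle 50%, from 0.602 to 0.655, beside a median of 0.636 for the 41 genes, of which Lgals3bp, at 0.435, is the lowest.

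In KO, dexamethasone with LPS lowered 41 of the 44 genes relative to LPS alone, against 17.3% of all tested genes, but by small amounts. The median was -0.28 (all genes -0.00196), no gene changed by 2-fold, and the range was -0.62 to 0.25. Lgals3bp was higher (0.25 ± 0.034, against 20.8% of all tested genes called higher), and Ifi27l2a (-0.03 ± 0.054, adjusted p = 0.75) and Ifi35 (-0.05 ± 0.060, adjusted p = 0.54) were not called. Both groups were in lane 2. Ifit3 was at 227, 213, 238 and 245 CPM with LPS and at 156, 153, 151 and 142 CPM with both (-0.62 ± 0.061), which is 65.2% of the LPS level. Rsad2 was at 589, 502, 629 and 551 CPM with LPS and at 367, 363, 394 and 372 CPM with both (-0.60 ± 0.061). The libraries did not overlap, while WT fell to 48.1 to 50.3 CPM. Mx1 was at 86.3, 77.2, 84 and 86.4 CPM and at 56.1, 56.5, 54.3 and 52.2 CPM (-0.61 ± 0.078), Mx2 at 102, 88.9, 99.9 and 82.9 CPM and at 54.2, 64.3, 68.1 and 59 CPM (-0.61 ± 0.078). Isg15 was at 318, 317, 319 and 331 CPM and at 255, 246, 239 and 224 CPM (-0.41 ± 0.056). Zbp1 was at 293, 299, 296 and 304 CPM and at 254, 248, 255 and 238 CPM (-0.26 ± 0.041). Each of these genes was lower in all 4 libraries with both agents than in all 4 with LPS, by less than in WT.

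The difference between genotypes in the effect of dexamethasone under LPS was tested directly. It was higher in KO, meaning a less negative fold change, for 42 genes against 23.9% of all tested genes, lower for 1 against 21.5%, and not called for Ifi35 (0.17 ± 0.085, adjusted p = 0.11). The median difference was 0.73 (all genes 0.000397). It was largest for Rsad2 (3.16 ± 0.093), Mx2 (2.69 ± 0.13), Mx1 (2.54 ± 0.13), Ifit3 (2.27 ± 0.093), Ifi44 (2.26 ± 0.094), Ifit3b (2.25 ± 0.15), Oasl1 (2.02 ± 0.073), Ifit2 (1.90 ± 0.091), Cmpk2 (1.84 ± 0.084) and Ifi204 (1.67 ± 0.069). It was smallest among the 42 for Slfn5 (0.23 ± 0.066), Slfn8 (0.24 ± 0.067) and Ifi27l2a (0.28 ± 0.076). Lgals3bp, which dexamethasone raised under LPS, went the other way (-0.15 ± 0.048, adjusted p = 0.011). By role the median difference was 2.61 for the Mx genes, 2.08 for the IFIT family, 1.3 for the ISG15 system, 0.54 for both the OAS family and the RNA sensors and 0.24 for the Schlafen and SAMD9 genes. The falls in WT under LPS had the same order by role, with medians of -3.22, -2.55, -1.71, -0.77, -0.77 and -0.41. The difference contains the WT fall, and the KO changes were small, so this order is not a separate result. Across the 44 genes the WT and KO effects of dexamethasone under LPS, which share no library, had r = 0.941 and rho = 0.983. Such a correlation goes with the near-constant position of the KO libraries with both agents described above. It is therefore not a further result on these genes.

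Levels with both agents were higher in KO than in WT for 42 of the 44 genes, against 28.5% of all tested genes, and lower for Lgals3bp (-0.17 ± 0.034), against 27.9%. The median was 0.74, 16 genes differed by 2-fold or more, and Ifi35 was not called. Rsad2 differed by 2.94 ± 0.071, Ifit3 by 2.35 ± 0.071, Ifi44 by 2.28 ± 0.073, Oasl1 by 1.73 ± 0.055 and Ifi204 by 1.59 ± 0.051. Ifi204 was at 186, 172, 182 and 168 CPM in KO and at 55.1 to 65.7 CPM in WT. Samd9l was at 399, 398, 399 and 382 CPM in KO and at 258 to 271 CPM in WT, so the libraries of the 2 genotypes did not overlap for either gene. With the lane term and without the merged library 39 genes were called higher and 0 lower, with Lgals3bp at an adjusted p of 0.076. The shares of all tested genes called in that fit, here and below, are not given. Lgals3bp was at 2405, 2297, 2474 and 2453 CPM in KO and at 2653 to 2745 CPM in WT. Relative to KO control, 34 genes were higher (37.5% of all tested genes) and 8 lower (36.5%) with both agents (33 and 5 with the lane term and without the merged library), and the libraries lay apart and higher for 34 genes (35.2% of all tested genes), and relative to KO dexamethasone all 44 were higher (38.5%), with Isg15 at 5.13 ± 0.082 and Ifit1 at 4.88 ± 0.076. The effect of dexamethasone was less negative with LPS than without for all 44 genes in KO, against 25.7% of all tested genes, with Ifit3b (3.89 ± 0.15), Ifit3 (3.42 ± 0.10) and Ifit2 (3.30 ± 0.097) at the upper end. Ifit1 (3.13 ± 0.097), Oasl2 (1.73 ± 0.051) and Lgals3bp (1.58 ± 0.049) were, with Ifit2 and Ifit3, the 5 of smallest adjusted p (1.6e-31 to 1.3e-30).

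The other genotype comparisons gave small differences. In control, KO was higher for 2 genes, against 0.243% of all tested genes, and lower for 0, against 0.298%. The 2 were Oasl1 (0.33 ± 0.061, adjusted p = 0.0017) and Ifi44 (0.31 ± 0.073, adjusted p = 0.028). Oasl1 was at 35.9, 32.3, 36.2 and 32.8 CPM in KO control, above the 23.7 to 29.8 CPM of WT, whereas the Ifi44 libraries overlapped, at 29.8, 31.4, 27.7 and 25.9 CPM in KO and 20 to 26 CPM in WT. With dexamethasone alone, KO was higher for 10 genes, against 0.541%, and lower for 0, against 0.36%, with a median of 0.15 over the 44. The smallest adjusted p values there belonged to Oasl2 (0.24 ± 0.039, adjusted p = 2.3e-04), Zbp1 (0.46 ± 0.082, adjusted p = 5.8e-04), Usp18 (0.46 ± 0.088, adjusted p = 0.0020), Oas3 (0.22 ± 0.043, adjusted p = 0.0020), and Rtp4 (0.23 ± 0.049) and Ifi27l2a (0.26 ± 0.055), both at an adjusted p of 0.0069. The Ifi44 call in control was lost without any 1 of 4 libraries (adjusted p = 0.089 to 0.18), and the Ifi27l2a call with dexamethasone without KO dexamethasone replicate 3 (adjusted p = 0.073). Zbp1 was at 11.9, 11.9, 9.42 and 10.7 CPM in KO and at 7.36 to 8.57 CPM in WT. With LPS alone, 1 gene was higher, Mx1 (0.23 ± 0.077, adjusted p = 0.041), against 4.66%, and 4 were lower, against 5.51%. These were Oasl1 (-0.29 ± 0.048, adjusted p = 1.3e-05), Ifitm3 (-0.23 ± 0.037, adjusted p = 1.5e-05), Isg15 (-0.23 ± 0.055, adjusted p = 0.0033) and Rsad2 (-0.22 ± 0.061, adjusted p = 0.012). None of the 5 was called with the lane term and without the merged library. That fit gave -0.24 for Isg15, -0.41 for Rsad2, -0.17 for Ifitm3, -0.04 for Oasl1 and 0.03 for Mx1. The Isg15 call was also lost without WT LPS replicate 3 (adjusted p = 0.051), the Rsad2 call without KO LPS replicate 2 (adjusted p = 0.095) and the Mx1 call without any 1 of 6 libraries.

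The genes that carry the interferon signal were read from a second list of 60 pathway genes, of which 46 passed the filter. The ligands gave almost no reads: Ifnb1 had 7 counts over the 4 WT control libraries, 2 in WT LPS and 0 in KO dexamethasone, and 7 of the other 12 interferon genes had 0 counts in all 32 libraries. These are levels at 24 h, and earlier times were not analysed here. The receptor genes did not move alike. Ifnar1 was at 140 ± 5.30 CPM in WT control and 141 ± 3.44 with dexamethasone (0.01 ± 0.039, adjusted p = 0.89), but at 390 ± 7.23 CPM with LPS and 223 ± 9.99 with both (-0.81 ± 0.037, adjusted p = 6.8e-25). Ifnar2 changed by -0.25 ± 0.041 without LPS and by -0.48 ± 0.039 with it. Jak2 rose from 41.1 ± 2.55 to 852 ± 41.0 CPM with LPS and was at 383 ± 5.84 CPM with both.

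Stat2 and Irf9 were lower with dexamethasone in either setting. Stat2 changed by -1.46 ± 0.048 without LPS and -1.28 ± 0.045 with it, and Irf9 by -0.77 ± 0.040 and -0.59 ± 0.039. Irf7, itself an interferon-induced factor that amplifies interferon production, went from 191 ± 19.6 to 32.9 ± 2.87 CPM without LPS (-2.54 ± 0.057) and from 1503 ± 114 to 399 ± 9.66 CPM with LPS (-1.91 ± 0.048). Irf1 changed by -0.63 ± 0.063 and -1.12 ± 0.058. Irf3, which TRIF signalling activates without new synthesis, did not pass the test without LPS (0.12 ± 0.057, adjusted p = 0.073) and rose with it (0.24 ± 0.059, adjusted p = 3.8e-04). In KO with both agents Irf7 was at 1048 ± 17.1 CPM against 1409 ± 18.7 CPM with LPS alone, and the genotype difference of the dexamethasone effect under LPS was 1.49 ± 0.066 for Irf7, 0.96 ± 0.063 for Stat2 and 0.41 ± 0.054 for Irf9.

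Upstream of these, Tlr4 did not pass the test without LPS (-0.05 ± 0.043, adjusted p = 0.35) and fell under LPS (-0.70 ± 0.045), and Ticam1 behaved likewise (-0.11 ± 0.056, adjusted p = 0.086, and -0.45 ± 0.051). Ddx58, the gene for the RNA sensor RIG-I, fell in both settings (-1.61 ± 0.046 and -0.65 ± 0.042). Socs1, an inhibitor of JAK kinases induced by the same signal, rose with LPS by 4.33 ± 0.098 and fell with dexamethasone by 2.38 on the log2 scale without LPS (SE 0.21) and by 2.85 with it (SE 0.083). Nr3c1 fell with dexamethasone alone (-0.42 ± 0.045) and was higher with both agents than with LPS (0.68 ± 0.045). Of the 7 genes listed with the glucocorticoid receptor, 5 were higher and 1, Nr3c1 itself, lower without LPS, and 6 were higher with it, while Nr3c2 was called in neither setting. Fkbp5, a co-chaperone of the receptor, rose by 4.87 ± 0.062 without LPS and by 5.90 ± 0.070 with it, and Tsc22d3, the gene for GILZ, by 3.60 ± 0.067 and 2.73 ± 0.074. Some pathway genes moved against the interferon-stimulated genes. Ifngr1, a receptor chain for interferon gamma, rose by 0.70 ± 0.033 and 0.51 ± 0.036, and Tlr7, an endosomal RNA receptor, by 0.43 ± 0.048 and 1.19 ± 0.051, whereas Cd14, the LPS co-receptor, fell (-0.96 ± 0.036 and -0.64 ± 0.035). Over the 46 pathway genes dexamethasone raised 13 and lowered 23 without LPS (21.2% and 28.2% of all tested genes), with a median of -0.10, and raised 17 and lowered 26 with LPS (34.6% and 34.5% of all tested genes), with a median of -0.39.

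**Figure D5:**
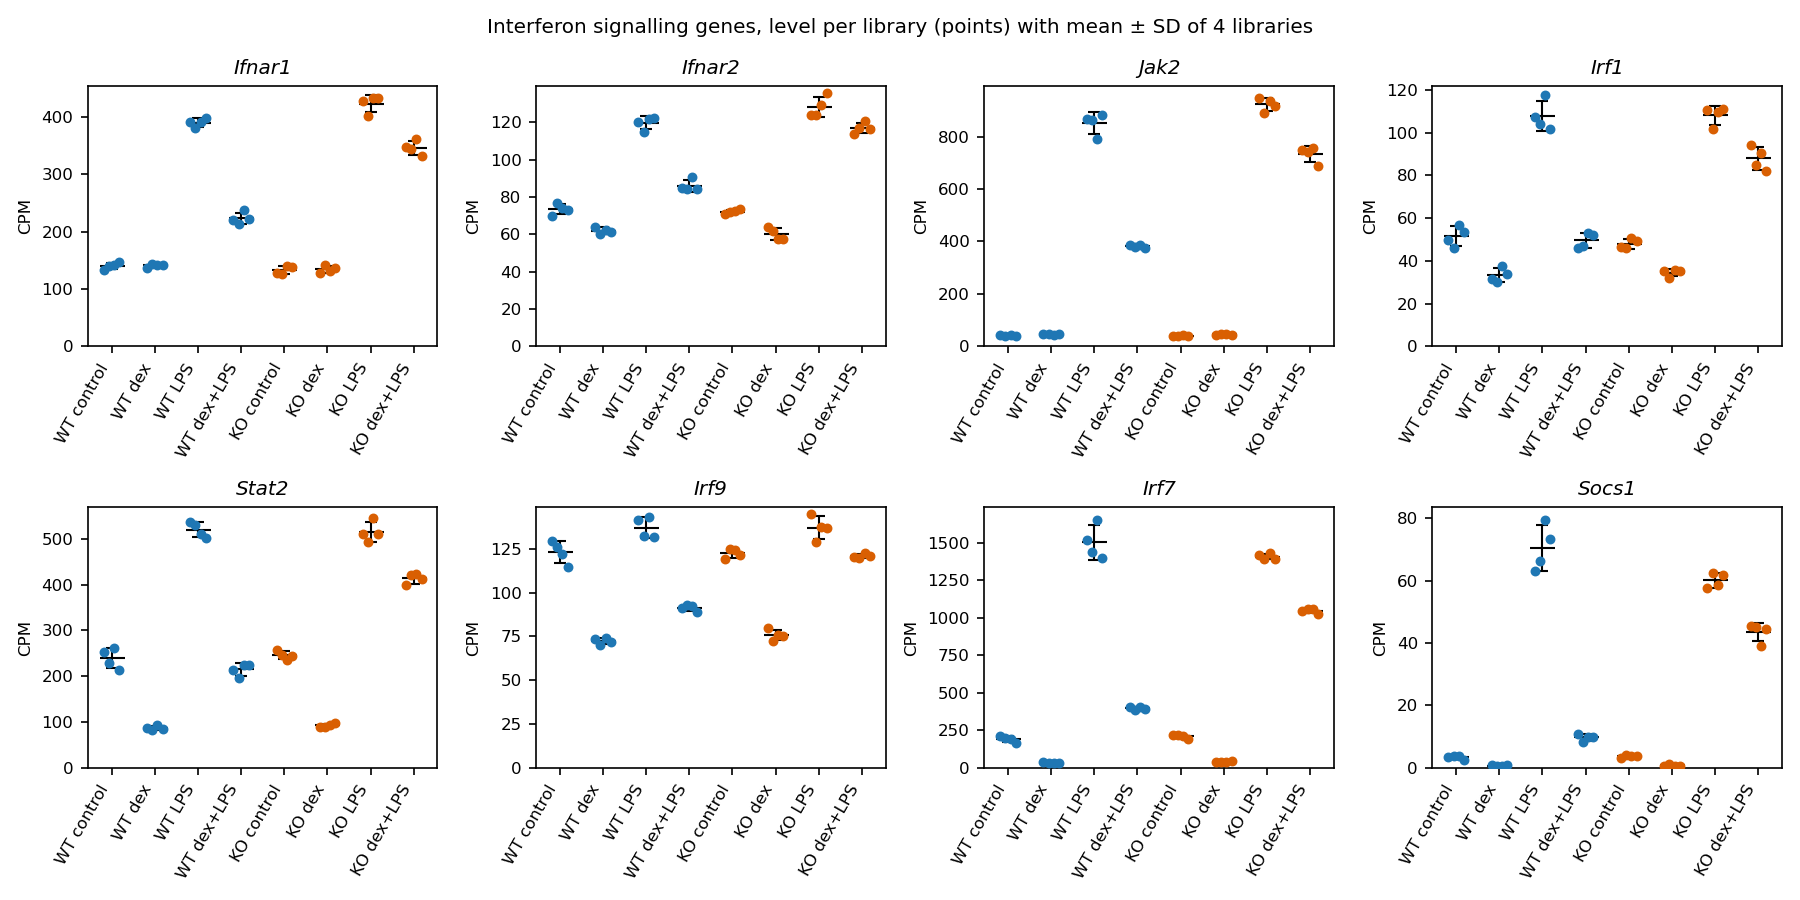
Level in CPM of the receptor genes Ifnar1 and Ifnar2, the kinase gene Jak2, the factors Irf1, Stat2, Irf9 and Irf7 and the inhibitor Socs1 in each library (points, linear axes from 0), by group, with the mean (horizontal line) and SD (error bar) of the 4 libraries. Irf1, Stat2, Irf9 and Irf7 lie lower with dexamethasone than without it in both genotypes, with and without LPS, whereas Ifnar1, in WT without LPS, is at 140 CPM in control and 141 CPM with dexamethasone.

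The promoter letters were set beside the effects as a description. The 16 genes with an ISRE core had a median WT change with dexamethasone of -1.49, the 17 genes without one -1.53 and the 11 without a window -1.81. The 6 stretches printed above belong to genes that changed by -1.36 (Bst2) to -4.91 (Ifit3b) without LPS. A palindromic form of the glucocorticoid response element was found in 0 of the 33 windowed genes and in 0.344% of tested genes, which says only that these letters were not in these windows. The kappaB motif GGGANNTTCC was in 3 of the 33 genes (9.09%) against 1.82% of tested genes. All motifs were searched on both strands.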

How the data were processed

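RNA-seq was done on 32 libraries of mouse bone marrow-derived macrophages in 8 groups of 4. The authors deposited whole-number read counts per gene. Per the file headers they were made with featureCounts 2.0.0 on paired reads, without strand, over exons of GENCODE vM32. Per the submitters' processing notes the tools include STAR and the builds GRCm38 and mm10, so positions from the deposited table and those from RefSeq are not mixed. Reads of genes with near-identical copies, or of overlapping genes, may be split between them.

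Counts were tested with edgeR 4.0.16 in R 4.3.3 (quasi-likelihood F test, TMM scaling, filterByExpr, 8 group means in 1 fit with 24 residual degrees of freedom, 19 comparisons). P-values were adjusted by Benjamini-Hochberg over the 14427 tested genes and called under 0.05. The SE is the fold change divided by the square root of F. Genes without a symbol held 0.846% of counts. The 44 genes, the pathway and marker lists and the tests were chosen with earlier results of these data known. Values per library are given for the genes of each role with the largest and the smallest change with dexamethasone in WT, without and with LPS. Also named were genes called against the direction of most, those not called where at most 5 were not, the 5 of smallest adjusted p in each direction between genotypes and between effects, and fixed pathway genes with up to 3 others of each pathway role. Other genes were named after their values were seen. A member of the pathway list is counted in its totals but not reported here. The method was tested on simulated data. Replicates differed by more than sampling noise in all 48 pairs (chi-square per degree of freedom 2.01 to 16.7, the highest values all in pairs with WT LPS replicate 3). Alternatives were RLE scaling, no scaling, no filter, DESeq2 1.42.0, fits of only the groups compared, a stricter threshold of 0.01, the replicate number as a block and the removal of each library in turn, plus a lane term without the merged library and lane 3 alone, both chosen after seeing the data.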

Additional observations from a re-analysis of the deposited data

Results flagged for a closer look

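Among 232 groups of 4 libraries checked for the named genes, 17 held a library far from the other 3, where chance alone gives about 1 in 20. WT LPS replicate 3 stood apart for Isg15 (447 CPM), Bst2 (1204 CPM, 1200 when rounded), Ifi35 (81.5 CPM) and Dtx3l (229 CPM). WT LPS replicate 2 did so for Zbp1 (281 CPM) and WT LPS replicate 4 for Phf11d (108 CPM). KO LPS replicate 2 was low for Ifi44 (89.8 CPM), Isg20 (50.1 CPM), Sp100 (275 CPM) and the sum of the 44 genes (15300 CPM), and KO LPS replicate 4 was high for Isg15 (331 CPM). The others were Mx2 in KO control replicate 4 (14.7 CPM), Oas1g in KO control replicate 2 (49 CPM), Dtx3l in WT control replicate 4 (152 CPM), Samd9l in WT replicate 2 and KO replicate 4 with both agents (258 and 382 CPM) and Phf11d in KO replicate 1 with both agents (86.4 CPM).

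Effects that differed by a direct test came from the edgeR fit. In WT the effect of dexamethasone differed with LPS for 40 of the 44 genes. Of all tested genes 32% were called higher and 28.4% lower there. The difference was 1.77 for Lgals3bp, 1.57 for Rtp4, 1.27 for Oasl2, 1.65 for Zbp1, 2.00 for Ifit1, -1.32 for Ifi204, -1.10 for Mx2, -0.383 for Rsad2 and -0.418 for Isg20. In KO the effect of dexamethasone differed with LPS for all 44 (25.7% of all tested genes higher, 16.2% lower). The difference was 3.30 for Ifit2, 1.73 for Oasl2, 3.42 for Ifit3, 1.58 for Lgals3bp and 3.13 for Ifit1. The dexamethasone effect under LPS differed between genotypes for 43 genes (23.9% of all tested genes higher, 21.5% lower). The difference was 3.16 for Rsad2, 2.02 for Oasl1, 2.27 for Ifit3, 1.67 for Ifi204, 2.26 for Ifi44 and -0.146 for Lgals3bp. The LPS effect differed between genotypes for 2 genes, by -0.62 for Oasl1 and -0.211 for Ifitm3. Among all tested genes 2.07% were called higher and 1.64% lower in that test. KO against WT levels under LPS, and LPS effects that involve KO, coincide with the sequencing lane, and the part of the lane was not tested beyond the lane term. For the dexamethasone effect under LPS, both groups within a genotype shared a lane, lane 3 in WT and lane 2 in KO.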

How the results depend on the processing

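The counts of called genes for dexamethasone and LPS within a genotype, and for both genotype comparisons under dexamethasone with LPS, stayed within 1.5 times under every alternative run. No called gene of the 44 that is named here changed direction. The pathway genes and Acod1 were not checked under the alternatives. Counts that moved more belong to small genotype differences. For KO against WT with LPS, 5 genes became 8 with no filter on low counts, 3 at a threshold of 0.01, 3 with the compared groups alone, 3 with DESeq2 and 0 with the lane term, a fit that also leaves out the merged library, here and below. For KO against WT in control, 2 became 1 at 0.01, with the groups alone, with the lane term and with lane 3 alone. With dexamethasone, 10 became 6 at 0.01. The difference in the LPS effect went from 2 to 6 with no filter, 1 at 0.01, 1 with the groups alone and 0 with the lane term, and the difference in the dexamethasone effect from 0 to 2 with no filter. Leaving out 1 library at a time gave 1 to 3 genes for KO against WT in control, 5 to 9 with dexamethasone (5 without WT dexamethasone replicate 4), 4 to 7 with LPS, 0 to 1 for the difference in the dexamethasone effect (1 without WT control replicate 4) and 2 to 3 for that in the LPS effect. It gave 32 to 35 for WT with both agents against control, 37 to 41 for the WT difference of effects, 41 to 42 for KO with both agents against LPS, 40 to 42 for KO LPS and 39 to 42 for KO with both agents against control, and the other counts did not move. The cause of these shifts was not tested. Some values that were not called changed sign. Samd9l in WT with both agents against control became 0.0114 with RLE size factors, 0.0158 with the groups alone, 0.0105 with DESeq2, and from -0.0548 to 0.01 with 1 library left out (0.01004 without WT control replicate 2, 0.00103 without WT control replicate 1, 0.00405 without WT dexamethasone and LPS replicate 2). In that comparison Ifit1 became -0.148 with no normalization and -0.0449 to 0.0709 with 1 library left out (WT control replicates 4 and 1). Slfn5 for LPS in WT became -0.222 with no normalization and -0.028 to 0.088 with 1 library left out (WT control replicate 4 and WT LPS replicate 3), and Sp100 -0.188 with no normalization. With no normalization the LPS effect in KO became -0.153 for Oas2, -0.169 for Rtp4, -0.148 for Slfn5 and -0.191 for Sp100, and Ifi27l2a in KO with both agents against LPS became 0.00264 (-0.0397 to 0.00198 without 1 library, KO dexamethasone and LPS replicates 1 and 3). The Mx1 difference of effects in WT ran from -0.276 to 0.11 without WT dexamethasone replicate 4 or 1. Of the values that changed sign with no normalization, all but Ifi27l2a were then called lower (adjusted p = 5.8e-06 to 0.023). The median of all genes went as low as -0.278 with no normalization (WT LPS against control, -0.0196 with TMM). There 34 genes were higher and 7 lower, and KO with both agents against control then had 32 higher and 10 lower. Replicate numbers did not pair the samples (same-number correlations -0.0287 to 0.0596 over 112 pairs), and with the replicate block 41 genes were called for the WT difference of effects, 3 for KO against WT in control, 6 with LPS and 3 for the difference in the LPS effect, with the other counts as before. Depth limits the values with dexamethasone of genes at a few CPM, among them Ifit3b, Ifi44, Isg20, Oasl1, Mx1 and Mx2.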
